A study of Mus musculus with 8 samples.

Results

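Colony-stimulating factors are the growth factors of macrophages, microglia and granulocytes, and 7 of the 54752 counted genes are described here, chosen by their symbols as the ligands and receptors of this family. They are Csf1 and Il34, the ligands of the CSF1 receptor, the receptor gene Csf1r itself, Csf2ra, Csf2rb and Csf2rb2, subunits of the receptors for GM-CSF and related cytokines, and Csf3r, the receptor for G-CSF. They were measured by RNA-seq in the right cerebral cortex of wild-type C57BL/6 mice, all adult males, at 3 weeks after surgery. The 4 BCAS mice had a microcoil placed around each common carotid artery (bilateral carotid artery stenosis), which narrows the vessels for the whole period, with the narrower coil on the right. The 4 sham mice had no stenosis, and each library came from 1 mouse. BCAS narrows the neck arteries and closes none. Cortical lesions are scattered in this model, so a sample of cortex can hold tissue from inside and outside lesions.

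CSF1R is a receptor tyrosine kinase on microglia and macrophages, and these cells die or fail to divide when its signal is withdrawn. In the healthy brain IL-34 is made mainly by neurons of the forebrain, and CSF1 mainly by glia. GM-CSF, IL-3 and IL-5 each bind an alpha subunit of their own and signal through a shared beta subunit, encoded by Csf2rb, via JAK2 and STAT5. Mice carry a further, IL-3-specific beta subunit, Csf2rb2, next to it. The G-CSF receptor is best known from neutrophils and their precursors.

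The beta subunit genes are recent duplicates, and reads from one can match the other, so their coding sequence is shown first. Csf2rb (chr15:78325752-78353847, plus strand) and Csf2rb2 (chr15:78282507-78305721, minus strand) lie on opposite strands of mm10. Their longest transcripts matched over 3108 bases at 95.1% identity. Exon 4 of each gene (Csf2rb chr15:78338802-78338989, Csf2rb2 chr15:78294342-78294529, 188 bases, all coding) was the longest pair of coding exons of equal length, and exon 13 (Csf2rb chr15:78347374-78347477, Csf2rb2 chr15:78285980-78286083, 104 bases) the most alike. Capitals mark the bases that differ between the genes.
Csf2rb exon 4: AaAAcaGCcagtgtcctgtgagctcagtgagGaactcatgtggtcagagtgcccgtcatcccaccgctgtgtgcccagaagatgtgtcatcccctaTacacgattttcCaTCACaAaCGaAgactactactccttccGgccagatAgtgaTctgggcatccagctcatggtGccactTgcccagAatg
Csf2rb2 exon 4: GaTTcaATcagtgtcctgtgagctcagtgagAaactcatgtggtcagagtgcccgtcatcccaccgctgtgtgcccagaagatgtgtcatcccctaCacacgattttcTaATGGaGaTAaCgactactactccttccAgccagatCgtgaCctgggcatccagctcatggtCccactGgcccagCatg
Csf2rb exon 13: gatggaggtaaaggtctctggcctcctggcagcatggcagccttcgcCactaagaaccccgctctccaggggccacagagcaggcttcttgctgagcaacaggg
Csf2rb2 exon 13: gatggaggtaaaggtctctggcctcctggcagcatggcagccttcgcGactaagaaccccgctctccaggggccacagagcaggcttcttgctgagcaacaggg
The exon 4 pair differed at 22 bases (88.3% identity) and the exon 13 pair at 1 base. Of all 150-base windows, the length of 1 read, 2.30% of Csf2rb and 3.34% of Csf2rb2 were present letter for letter in the other gene. The counting discarded reads that aligned to several places, so most of each gene could still be counted, and the level of either gene is less sure than that of the others.

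A promoter of 250 bases before the RefSeq start site to 50 after it (GRCm38.p6) was given for 4 of the 7 genes, Csf1, Csf2ra, Csf2rb2 and Csf3r. These genes moved in the same direction, so their upstream sequence was searched on both strands for GAGGAAG, a core of sites for the macrophage factor PU.1, for the STAT motif TTCNNNGAA and for the AP-1 motif TGANTCA. Shown are the 250 bases upstream of Csf2ra (chr19:61228419-61228668, minus strand) and Csf2rb2 (chr15:78305722-78305971, minus strand), the same stretch of Csf1 (chr3:107760470-107760719, minus strand), which held no match, and 30 bases at the match of Csf3r (chr4:126024562-126024591, plus strand). Capitals mark GAGGAAG or its complement.
Csf2ra: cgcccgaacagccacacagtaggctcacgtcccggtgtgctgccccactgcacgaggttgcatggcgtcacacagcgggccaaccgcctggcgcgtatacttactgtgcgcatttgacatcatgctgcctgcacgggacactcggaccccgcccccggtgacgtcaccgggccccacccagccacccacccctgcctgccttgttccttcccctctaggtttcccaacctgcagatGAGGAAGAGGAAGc
Csf2rb2: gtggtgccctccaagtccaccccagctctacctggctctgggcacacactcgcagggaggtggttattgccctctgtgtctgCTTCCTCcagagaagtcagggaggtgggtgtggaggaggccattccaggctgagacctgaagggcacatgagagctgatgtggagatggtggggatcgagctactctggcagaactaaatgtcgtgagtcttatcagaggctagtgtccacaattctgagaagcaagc
Csf3r: ctccttcctgaGAGGAAGgggctgtctatg
Csf1: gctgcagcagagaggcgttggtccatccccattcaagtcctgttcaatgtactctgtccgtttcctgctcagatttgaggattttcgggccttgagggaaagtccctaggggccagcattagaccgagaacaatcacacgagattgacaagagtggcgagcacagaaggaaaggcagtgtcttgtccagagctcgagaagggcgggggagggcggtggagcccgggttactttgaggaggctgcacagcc
Csf2ra held GAGGAAG at -14 to -8 and again at -8 to -2, the copies sharing 1 base. Csf3r held it at -86 to -80 from the RefSeq start site. The counted GENCODE gene model of Csf3r starts before this stretch, at chr4:126024550. Csf2rb2 held it on the other strand at -168 to -162 and at 29 to 35, the latter past the start site and not shown, and also held the STAT motif at -15 to -7. The AP-1 motif was in none of these 4 windows. Among 32851 mouse promoters of the same length, 13.6% held GAGGAAG, 8.30% the STAT motif and 7.81% the AP-1 motif. A match describes letters in a window, not binding.

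Compared to the sham group, 6 of the 7 genes were called higher in BCAS cortex, and Il34, the remaining ligand, was lower by a small amount. A gene was called at an edgeR adjusted p under 0.05 (Benjamini-Hochberg over 17136 tested genes) and a log2 fold change beyond 1 in either direction, and all 7 genes passed the filter on low counts. By this rule 11.0% of the tested genes were called higher and 1.28% lower, and 32.0% had an adjusted p under 0.05 in either direction, which all 7 genes had. The median log2 fold change was 2.76 over the 7 genes and -0.01 over all tested genes. In the 6 genes every BCAS library lay above every sham library, as in 18.5% of the tested genes. Il34 lay below in every BCAS library, as in 16.3%, and 12.8% of tested genes were lower at an adjusted p under 0.05.

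**Figure D1:**
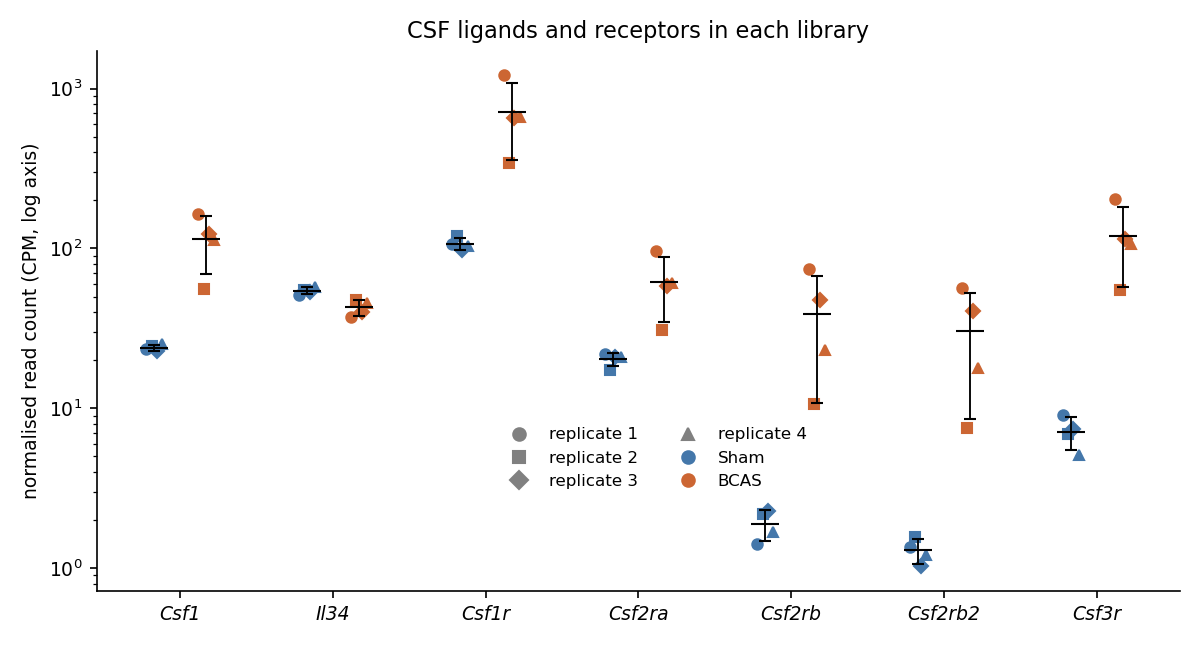
Normalised read count of the 7 genes in each of 8 libraries, in TMM-normalised CPM (read pairs scaled to a common library size) on a log axis. Symbols give the replicate number, bars the mean and SD of 4 mice. The BCAS libraries lie above the sham libraries for 6 genes and below them for Il34, and BCAS replicate 2 is the lowest BCAS library for each of those 6 genes.

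The libraries held 16759364 to 21794435 counted read pairs. A count of 3, taken as the floor, corresponds to 0.138 to 0.179 CPM on the library totals, before TMM scaling. This covers counting error only. The smallest level among the 7 genes was 18 counts of Csf2rb2 in sham replicate 3. Summed neuronal markers (8830 to 10600 CPM in sham) and cortical markers (461 to 620 CPM) were abundant, as the tissue label says. In BCAS mice the cortical markers summed to 156 to 416 CPM, with 3 of 6 genes lower at an edgeR adjusted p under 0.05 and 1 of them called. Striatal markers summed to 117 to 225 CPM in sham and 175 to 376 CPM in BCAS mice, with 1 of 5 genes higher at an adjusted p under 0.05 and none called. The mean change of this list was 1.46 on the log2 scale in BCAS replicate 4 against 0.27 to 0.56 in the other BCAS mice, and 0.61 in sham replicate 2. The part of this shift in the results was not tested. Sham replicate 3 stood apart in choroid plexus markers, at 773 CPM against 14.8 CPM in the lowest sham library, and without it the same number of the 7 genes was called (6).

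The CSF1R ligands moved in opposite directions. Csf1 (ENSMUSG00000014599.10, chr3:107741048-107760469, minus strand) encodes a ligand made by many tissues. Its level was 23.6, 24.4, 22.8 and 25.2 CPM in the sham mice and 165, 56.0, 123 and 113 CPM in the BCAS mice, replicates 1 to 4. The sham mice were nearly equal and every BCAS mouse was at least 2.22 times the highest of them, although the BCAS mice differed 2.95-fold among themselves. The mean rose from 24.0 ± 1.06 to 114 ± 45.0 CPM (SD, n = 4 each), a log2 fold change of 2.25 (SE 0.28, edgeR adjusted p = 0.00198). Astrocyte markers were higher in the same libraries, summing to 4470 to 5150 CPM in sham and 5990 to 9030 CPM in BCAS mice. Of the 6 genes 5 were higher at an edgeR adjusted p under 0.05 and 2 were called, beside 11.0% of all tested genes called higher. The part of astrocytes and of microglia in the Csf1 result was not tested.

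Il34 (ENSMUSG00000031750.15, chr8:110741829-110805924, minus strand) encodes the neuronal ligand. Its level was 50.9, 54.9, 53.7 and 57.6 CPM in the sham mice and 37.4, 47.4, 40.3 and 45.8 CPM in the BCAS mice. The groups did not overlap, but the gap between the lowest sham and the highest BCAS mouse was narrow. The log2 fold change was -0.35 (SE 0.09, edgeR adjusted p = 0.0250), a mean of 54.3 ± 2.76 against 42.7 ± 4.66 CPM (SD, n = 4 each). The edgeR adjusted p was above 0.05 when 1 of 3 libraries was left out (0.0646 without sham replicate 2, 0.0708 without sham replicate 4, 0.0704 without BCAS replicate 3). It was 0.0655 when libraries were scaled by their totals alone. Of the exon bases of Il34, 4.95% overlap genes on the opposite strand, and the counting call recorded no strand option.

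Neuronal markers were lower in the same libraries. Of 9 neuronal genes 8 were lower at an edgeR adjusted p under 0.05, beside 12.8% of all tested genes. Of these 8 genes 1 was called, and the list summed to 3260 to 7470 CPM in the BCAS mice. Relative to the sham mean, the mean of the neuronal list in BCAS replicates 1 to 4 was -1.45, -0.36, -0.70 and -0.77 on the log2 scale, beside -0.53, -0.19, -0.43 and -0.24 for Il34. Il34 thus moved less than the neuronal list in each of the 4 mice. The log2 difference between Il34 and the list mean was -3.78 ± 0.13 in sham and -3.31 ± 0.33 in BCAS mice, a shift of 0.47 (exact two-sided permutation test over 70 arrangements, p = 0.0286, adjusted p = 0.0429 over 6 such measures). This measure was chosen after the values were seen, and 0.0286 is the smallest p that 4 mice against 4 can give. The exact permutation p was 0.0857 without sham replicate 1 and 0.0571 without sham replicate 2, 3 or 4 or BCAS replicate 1. In bulk tissue, fewer cells of a type and less RNA per cell cannot be told apart.

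The balance of the ligands therefore differed between the groups. Per kilobase of gene model, Csf1 was 0.172, 0.165, 0.157 and 0.163 of Il34 in the sham mice and 1.64, 0.439, 1.13 and 0.915 of it in the BCAS mice. In sham cortex Il34 was the more abundant ligand in every mouse, whereas in BCAS cortex Csf1 exceeded it in replicates 1 and 3. The mean log2 ratio was -2.61 ± 0.05 in sham and -0.11 ± 0.80 in BCAS mice (SD, n = 4 each), a difference of 2.50 (exact two-sided permutation test, p = 0.0286, adjusted p = 0.0429). Csf1 was higher and Il34 lower in every BCAS library than in every sham library, which fixed this p in advance. The test therefore adds no support beyond the results of the single genes. The exact permutation p was 0.0571 when any 1 sham library was left out, with differences of 2.48 to 2.52.

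Csf1r (ENSMUSG00000024621.15, chr18:61105572-61132149, plus strand) was the most abundant of the receptor genes. Its level was 106, 119, 98.0 and 103 CPM in the sham mice and 1210, 344, 658 and 660 CPM in the BCAS mice. The lowest BCAS mouse had 2.90 times the level of the highest sham mouse. The mean rose from 106 ± 8.84 to 718 ± 360 CPM (SD, n = 4 each), a log2 fold change of 2.76 (SE 0.33, edgeR adjusted p = 0.00195), and 3.01% of tested genes had a larger one. Of its exon bases 17.8% overlap Hmgxb3 on the opposite strand, a gene at 47.5 CPM in sham and 41.3 CPM in BCAS mice (log2 fold change -0.20, SE 0.09, edgeR adjusted p = 0.111).

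Receptor transcripts outgrew those of the ligands. Csf1r per kilobase was 0.711, 0.743, 0.632 and 0.615 of the sum of Csf1 and Il34 in the sham mice and 4.91, 2.02, 3.07 and 3.02 times that sum in the BCAS mice. By this measure every sham mouse had more ligand than receptor transcript and every BCAS mouse more receptor than ligand transcript. Pairs ambiguous between Csf1r and Hmgxb3 are missing from the Csf1r count. Which side exceeds the other also depends on the gene model lengths used. The mean log2 ratio went from -0.57 ± 0.13 to 1.63 ± 0.52 (SD, n = 4 each), a difference of 2.20 (exact two-sided permutation test, p = 0.0286, adjusted p = 0.0429). These are transcript levels, and soluble ligand was not measured here.

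Microglial markers rose in the same libraries by a like amount. All 11 genes of the microglia list (such as P2ry12, Tmem119 and Cx3cr1) were called higher, beside 11.0% of all tested genes. The median log2 fold change of the list was 2.79, and its sum went from 313 to 374 CPM in sham to 1280 to 4750 CPM in BCAS mice. Border-associated macrophage markers (5 of 7 called higher, 17.3 to 21.3 against 32.1 to 118 CPM in sum) rose too. The log2 level of Csf1r minus the mean of the microglia list was 2.21 ± 0.07 in sham and 2.20 ± 0.08 in BCAS mice. This difference of -0.01 was smaller than the spread between mice (exact two-sided permutation test, p = 0.771, adjusted p = 0.771), and the exact rank interval with 97.1% coverage ran from -0.14 to 0.21. This holds for the mean of the list: single markers changed by less than Csf1r (P2ry12, log2 fold change 1.80) or by more (Fcrls, 3.83). The part of these cells in the Csf1r result was not tested.

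**Figure D2:**
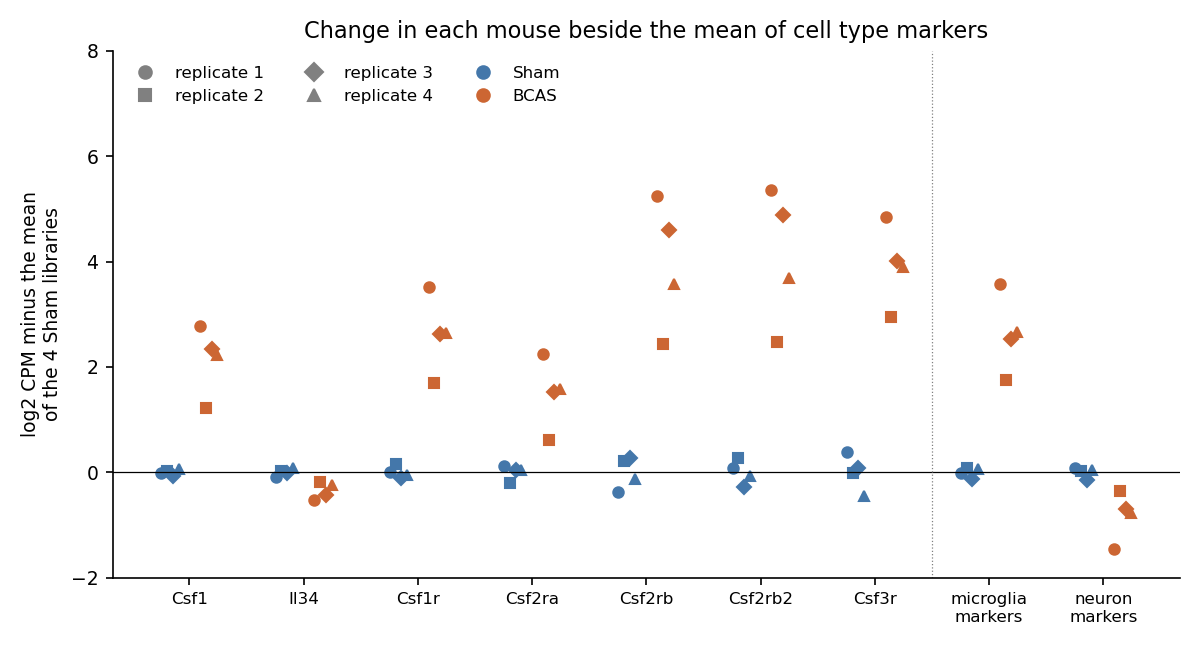
Log2 CPM of each library minus the mean of the 4 sham libraries, for the 7 genes and for the mean of 11 microglia and 9 neuron markers. Within each gene that rose, BCAS replicate 1 (circle) changed most and BCAS replicate 2 (square) least, as the microglia markers did, and Csf1r sits level with those markers.

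Csf2ra (ENSMUSG00000059326.6, chr19:61224402-61228418, minus strand) encodes the ligand-specific subunit of the GM-CSF receptor. Its level was 22.0, 17.4, 20.9 and 20.8 CPM in the sham mice and 96.1, 31.0, 58.6 and 60.6 CPM in the BCAS mice. BCAS replicate 2 was only 1.41 times the highest sham mouse, the narrowest margin among the 6 genes that rose. The mean rose from 20.3 ± 1.98 to 61.6 ± 26.7 CPM (SD, n = 4 each), a log2 fold change of 1.60 (SE 0.29, edgeR adjusted p = 0.00606), the smallest of the 6. When the test asked for a change beyond 1 on the log2 scale, Csf2ra had an edgeR adjusted p of 0.139, while the other 5 genes that rose had 0.00313 to 0.00961.

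Csf2rb (ENSMUSG00000071713.6), the signalling subunit shared by the GM-CSF, IL-3 and IL-5 receptors, was near the lower limit of the tested range in sham cortex. Sham replicates 1 to 4 had 25, 35, 40 and 28 reads (1.42, 2.18, 2.29 and 1.69 CPM). BCAS replicates 1 to 4 had 1700, 206, 882 and 428 reads (74.7, 10.6, 47.6 and 23.3 CPM). The lowest BCAS mouse still had 4.64 times the level of the highest sham mouse. The log2 fold change was 4.36 (SE 0.59, edgeR adjusted p = 0.00254), and 0.817% of tested genes had a larger one.

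Csf2rb2 (ENSMUSG00000071714.7), the beta subunit used by IL-3 alone, followed a like course. Sham replicates 1 to 4 had 24, 25, 18 and 20 reads (1.36, 1.56, 1.03 and 1.21 CPM). BCAS replicates 1 to 4 had 1286, 147, 754 and 326 reads (56.5, 7.57, 40.7 and 17.8 CPM). Its log2 fold change of 4.57 (SE 0.62, edgeR adjusted p = 0.00254) was the largest of the 7 genes. The BCAS mice differed by 7.04-fold in Csf2rb and 7.47-fold in Csf2rb2, more than in any of the other 5 genes. With the counts of both summed as 1 feature, the log2 fold change was 4.45 (edgeR adjusted p = 0.00236).

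The log2 ratio of Csf2rb to Csf2rb2 per kilobase was -0.08 ± 0.44 in sham and -0.24 ± 0.11 in BCAS mice (SD, n = 4 each). The gene model lengths used (7277 and 4740 bases) set the level of this ratio, but not its difference between the groups. The difference of -0.16 was within the spread between mice (exact two-sided permutation test, p = 0.657, adjusted p = 0.771), with an exact rank interval from -0.90 to 0.43 at 97.1% coverage. It was 0.04 without sham replicate 3, the sham mouse with the highest ratio, and -0.32 without sham replicate 1. At counts of 18 to 40 in the sham libraries, a small shift between the copies was not detectable.

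The alpha and beta subunits changed by different amounts. The summed beta subunits per kilobase were 0.0414, 0.0679, 0.0479 and 0.0441 of Csf2ra in the sham mice and 0.427, 0.183, 0.478 and 0.212 of it in the BCAS mice. Csf2ra transcript thus exceeded beta subunit transcript in all 8 libraries, by less in every BCAS mouse than in any sham mouse. Reads that align to both copies are missing from the beta sum in all libraries. The mean log2 ratio was -4.34 ± 0.32 in sham and -1.75 ± 0.70 in BCAS mice (SD, n = 4 each), a difference of 2.60 (exact two-sided permutation test, p = 0.0286, adjusted p = 0.0429). This ratio was chosen after the values were seen.

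**Figure D3:**
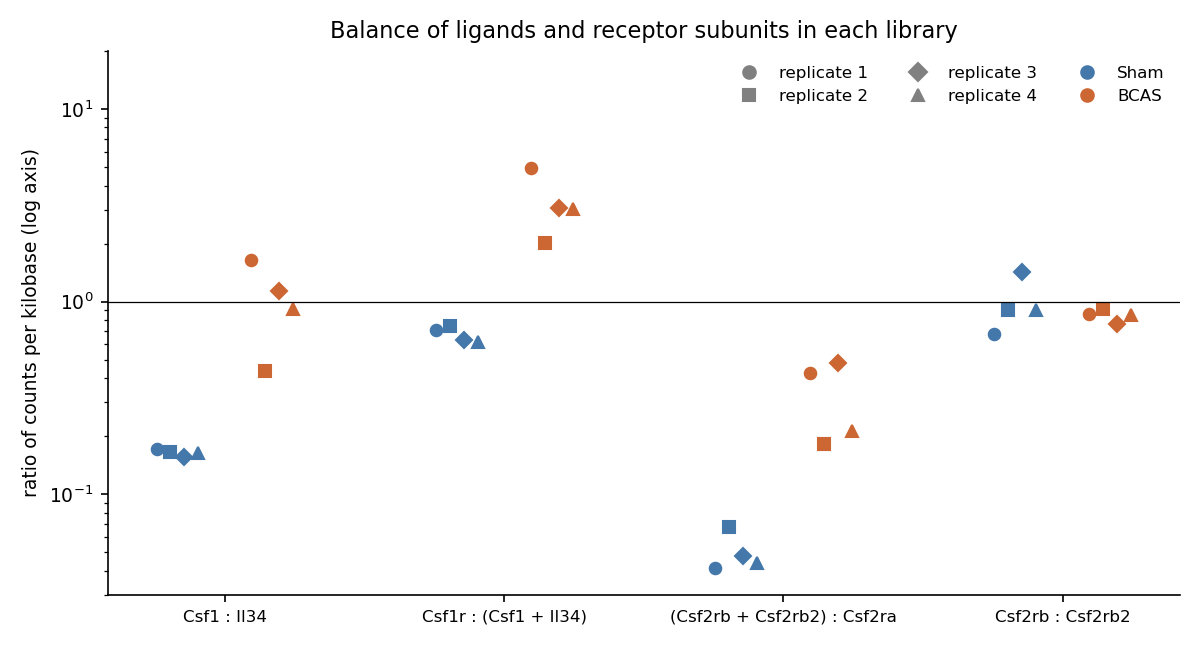
Ratio of counts per kilobase in each library on a log axis, with a line at 1. Csf1 to Il34, Csf1r to the sum of its ligands, and the beta subunits to Csf2ra are higher in every BCAS library than in every sham library, while Csf2rb to Csf2rb2 overlaps between the groups.

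Csf3r (ENSMUSG00000028859.14, chr4:126024550-126044440, plus strand), the G-CSF receptor gene, had 9.09, 6.93, 7.44 and 5.07 CPM in the sham mice and 205, 54.6, 115 and 106 CPM in the BCAS mice. The lowest BCAS mouse had 6.01 times the level of the highest sham mouse, the widest gap of the 7 genes. The mean rose from 7.13 ± 1.66 to 120 ± 62.5 CPM (SD, n = 4 each), a log2 fold change of 4.07 (SE 0.40, edgeR adjusted p = 0.00146, the smallest of the 7).

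Neutrophil markers were low in every library. None of the 10 genes of the neutrophil list passed the filter, Ly6g and Elane had 0 counts in all 8 libraries, and the summed list was 0.250 to 1.03 CPM in sham and 0.927 to 15.4 CPM in BCAS mice. In BCAS replicates 1 to 4, S100a9 had 92, 7, 98 and 16 counts and Cxcr2 had 71, 0, 65 and 4 counts, so most of these lay in replicates 1 and 3. Mpo (2, 1, 0 and 5 counts), Ngp (5, 5, 3 and 8) and Camp (0, 0, 0 and 3) did not share that order and had at most 4 counts in any sham mouse. BCAS replicate 2 had 5 counts of S100a8, 7 of S100a9 and 0 of Cxcr2, and 1060 counts of Csf3r, against 84 to 160 of Csf3r in the sham mice. The monocyte list (6 genes, 3 tested, 2 called higher) summed to 21.9 to 29.7 CPM in sham and 32.8 to 142 CPM in BCAS mice. The lymphocyte list (7 genes, 2 tested, both called higher) summed to 2.23 to 4.93 and 5.10 to 54.1 CPM. Of all tested genes, 11.0% were called higher. The part of neutrophils, monocytes and lymphocytes in the receptor results was not tested.

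Relative to the mean of the microglia list, 3 of the other members lay below and 3 above. The 11 markers themselves ran from a log2 fold change of 1.67 (Sall1) to 3.83 (Fcrls), a range that holds Csf1 (2.25) and lies just above Csf2ra (1.60). With the sham mean set to 0 on the log2 scale, the mean in BCAS mice was -1.14 ± 0.14 for Csf2ra, -0.49 ± 0.26 for Csf1 and -2.98 ± 0.88 for Il34, below every sham mouse in each case. It was 1.30 ± 0.13 for Csf3r, 1.33 ± 0.65 for Csf2rb and 1.47 ± 0.74 for Csf2rb2 (SD, n = 4 each), above every sham mouse. The excess of Csf3r was alike in the 4 BCAS mice (1.28, 1.19, 1.49 and 1.24), whereas that of Csf2rb was larger in replicates 1 and 3 (1.67 and 2.07) than in replicates 2 and 4 (0.68 and 0.91). Replicates 1 and 3 were also the BCAS mice with the largest change in the monocyte list (4.59 and 3.86 against 1.30 and 2.39), and likewise in the lymphocyte list (4.29 and 3.43 against 1.34 and 2.44) and the border-associated macrophage list (2.63 and 2.06 against 0.79 and 1.55). These list means rest on the 3 of 6 monocyte, 2 of 7 lymphocyte and 7 of 7 macrophage genes that passed the filter, some of them only through their BCAS counts, such as Ly6c2 with 0 to 3 counts in the sham mice. These values are a description, with no test.

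**Figure D4:**
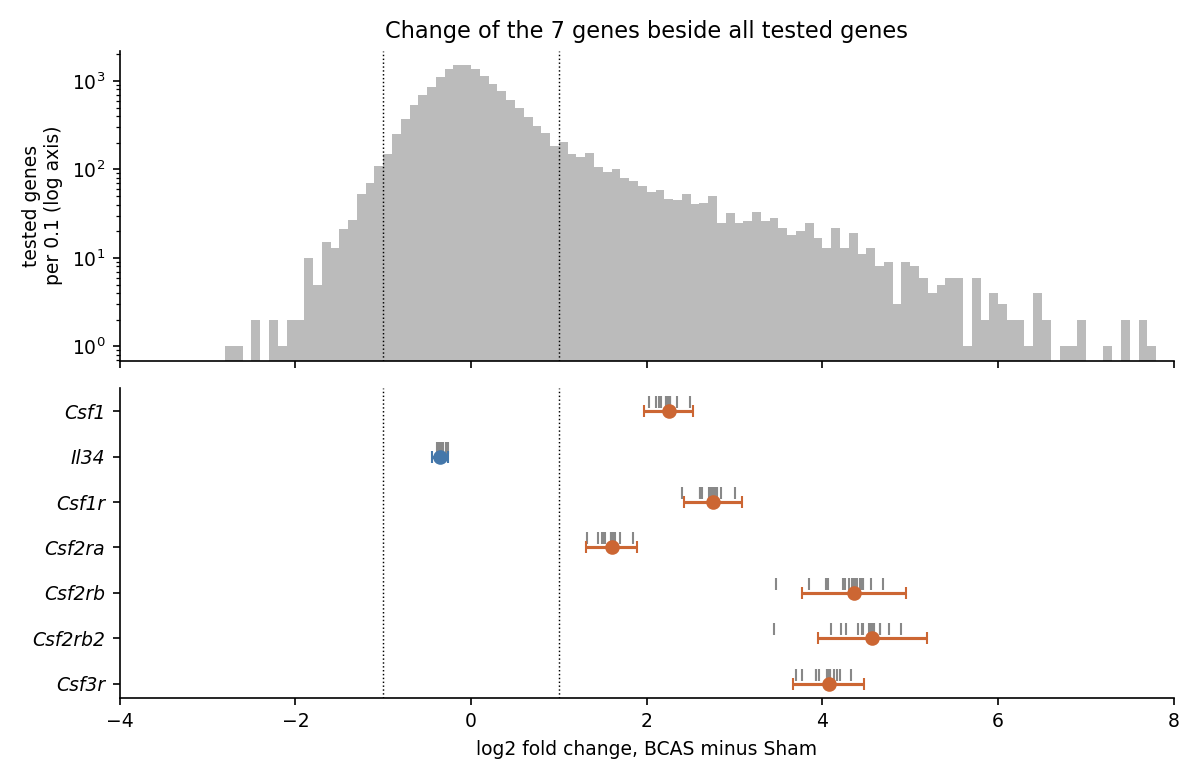
Top, log2 fold changes of all 17136 tested genes on a log count axis; bottom, the log2 fold change and SE of the 7 genes, with each alternative fit as a grey tick above the point. Dotted lines mark a log2 fold change of 1 in each direction, which Csf2ra (1.60) to Csf2rb2 (4.57) exceeded and Il34 (-0.35) did not.

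On a scale that allows comparison between genes (TPM, read density per base of gene model scaled to a common total, computed here), Il34 led in sham cortex with a mean of 117 TPM (range 107 to 125). Csf1r followed with 91.6 (87.9 to 100), Csf2ra with 46.3 (38.9 to 49.4), Csf1 with 19.2 (18.4 to 20.3) and Csf3r with 8.32 (5.96 to 10.4) TPM. None of these neighbours overlapped, while Csf2rb2 (1.14 TPM) and Csf2rb (1.10 TPM) did. The gene model of Csf2rb (7277 bases) is longer than its longest transcript (4900 bases), unlike that of Csf2rb2 (4740 bases). The order of these copies thus depends on the length used. In BCAS cortex Csf1r led with 608 TPM (304 to 994), above every library of any other member. Csf3r (138, range 65.4 to 228), Csf2ra (138, range 72.5 to 209), Il34 (91.5, range 76.7 to 105), Csf1 (89.7, range 45.8 to 126), Csf2rb2 (26.6, range 6.90 to 47.9) and Csf2rb (22.1, range 6.30 to 41.2) followed, each overlapping its neighbour.

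The genes with the most similar profile over the 8 libraries were sought among the 12437 tested genes averaging 100 counts or more, by the root-mean-square (RMS) difference in log2 CPM relative to the sham mean. For Csf1r they were Cx3cr1 (0.0562), Rnase4 (0.0628) and Naglu (0.0661), and Cx3cr1 is itself on the microglia list. For Csf1 they were Tgfbr1 (0.0640), Asap3 (0.0790) and Fgd2 (0.105), and for Il34 Rrn3 (0.0386), Map2k1 (0.0510) and Chst1 (0.0525). For Csf2ra they were Vwa5a (0.0905), Arrdc4 (0.104) and Tmco4 (0.121). Csf2rb was closest to Ptprc (0.155), which encodes the leukocyte antigen CD45, to H2-Q7 (0.170) and to Il2rg (0.198). Csf2rb2 was closest to Naip6 (0.245), Epsti1 (0.254) and Myo1f (0.268), and Csf3r to Fcgr2b (0.189), Ctsd (0.221) and Slamf9 (0.234). The beta subunits stood at 0.283 from each other, with 6 genes closer to Csf2rb and 4 closer to Csf2rb2. These are descriptions, and all genes share the same 8 libraries.

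The ligands of the GM-CSF and G-CSF receptors were at or near the floor of 3 counts. Csf2, which encodes GM-CSF, had 0 counts in 7 libraries and 1 count in BCAS replicate 3. Csf3, which encodes G-CSF, had 1 count in sham replicate 2 and 5 and 2 counts in BCAS replicates 1 and 3. Il3 had 0 counts in all 8 libraries, and Il5 and its receptor subunit gene Il5ra had at most 6. A count of 0 allows up to 0.138 to 0.179 CPM in these libraries, on the library totals before TMM scaling.

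Among the 14 related growth factors and receptors, 9 were tested and 1 was called higher, beside 11.0% of all tested genes. This was Il3ra, the IL-3-specific alpha subunit, whose reads numbered 17, 19, 20 and 26 in sham cortex and 308, 56, 164 and 128 in BCAS cortex (log2 fold change 2.73, SE 0.44, edgeR adjusted p = 0.00425). Pdgfrb, relative of Csf1r and a pericyte receptor (1.00, adjusted p = 0.0127), Pdgfb (0.77, adjusted p = 0.00883) and Pdgfra (0.51, adjusted p = 0.0238) were higher by edgeR without passing the fold threshold, and Kitl was lower (-0.37, adjusted p = 0.0319). The other tested relatives, Kit, Flt3, Flt3l and Pdgfa, had edgeR adjusted p-values from 0.162 to 0.642. Pdgfrb lay at the fold threshold, and 2 genes of the list were called without sham replicate 2, BCAS replicate 2 or BCAS replicate 4.

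Of 4 other proteins that bind or shed the CSF1R system, 3 were called higher, beside 11.0% of all tested genes. Trem2, a microglial lipid receptor, rose by 4.34 on the log2 scale (SE 0.37, edgeR adjusted p = 0.00146, 12.3 ± 1.97 to 248 ± 122 CPM). Sdc1, a heparan sulfate proteoglycan that binds IL-34, rose by 2.11 (SE 0.42, adjusted p = 0.00840) from a low level of 1.30 ± 0.123 CPM. Adam17, a protease that cleaves CSF1 and CSF1R from the cell surface, rose by 1.90 (SE 0.29, adjusted p = 0.00344). Ptprz1, an IL-34 receptor of neural cells, was higher by 0.35 (adjusted p = 0.0374) and was not called.

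Of 20 genes that relay the receptors' signals inside the cell, 12 were called higher and none lower, beside 11.0% and 1.28% of all tested genes, with a median log2 fold change of 2.66. The largest changes were in Fgr, a Src family kinase of myeloid cells (log2 fold change 5.74, SE 0.77, edgeR adjusted p = 0.00252, 2 to 9 counts in the sham mice), Tyrobp, the adaptor DAP12 (4.32, SE 0.36, adjusted p = 0.00146), and Rac2, a GTPase of blood cells (3.90, SE 0.57, adjusted p = 0.00305). The widely expressed relay genes Grb2, Sos1 and Akt1, named after their values were seen, had log2 fold changes from -0.10 to 0.03 with edgeR adjusted p-values from 0.357 to 0.822.

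Beside 11.0% of all tested genes, 5 of 10 genes that damp these signals were called higher. They were led by Ptpn6, the phosphatase SHP-1 (log2 fold change 4.06, SE 0.50, edgeR adjusted p = 0.00201), Inpp5d, the lipid phosphatase SHIP1 (2.68, SE 0.38, adjusted p = 0.00280), and Socs3, which restrains G-CSF receptor and IL-6 family signalling (1.90, SE 0.41, adjusted p = 0.0113). Cish and Socs2, known targets of STAT5, had log2 fold changes of -0.20 (edgeR adjusted p = 0.532) and -0.14 (edgeR adjusted p = 0.384). Socs1, a further brake on JAK kinases, was called higher (1.04, edgeR adjusted p = 0.0193).

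Beside 11.0% of all tested genes, 3 of 9 genes of the JAK-STAT relay were called higher. They were Stat5a (log2 fold change 1.90, SE 0.50, edgeR adjusted p = 0.0221), Shc1 (1.42, SE 0.27, adjusted p = 0.00757) and Stat3 (1.15, SE 0.20, adjusted p = 0.00527). Stat5a had 19 to 62 counts in sham and 61 to 339 in BCAS mice, so its groups overlapped. Jak2, the kinase bound to the beta subunit, was at 54.4 ± 5.51 CPM in sham and 69.2 ± 16.0 CPM in BCAS mice (log2 fold change 0.35, edgeR adjusted p = 0.118). Pim1, another known target of STAT5, was at 3.40 ± 0.881 CPM in sham and 7.67 ± 5.22 CPM in BCAS mice (log2 fold change 1.18, edgeR adjusted p = 0.0736). The count for this list was 5 without BCAS replicate 2. It was 2 without sham replicate 1, 3 or 4, without BCAS replicate 1 or 3, and with the replicate block.

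Of 9 myeloid transcription factors, 8 were called higher, beside 11.0% of all tested genes. Their median log2 fold change was 2.84, beside 2.79 for the microglia list. The part of microglia, monocytes and lymphocytes in the counts of these pathway lists was not tested. Irf8 (log2 fold change 3.96, SE 0.45, edgeR adjusted p = 0.00176), Runx1 (3.75, SE 0.48, adjusted p = 0.00214) and Spi1 (3.52, SE 0.44, adjusted p = 0.00205) changed most, and Spi1 encodes PU.1, which drives Csf1r in macrophages. Spi1 stood at 4.01 ± 0.382 CPM in sham and 46.1 ± 27.2 CPM in BCAS mice.

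Of 5 genes known to respond to GM-CSF in myeloid cells, 3 were tested and 1 was called higher, beside 11.0% of all tested genes. Itgax, which encodes CD11c, went from 6, 6, 9 and 8 reads in sham cortex to 1646, 354, 1145 and 1060 in BCAS cortex (log2 fold change 6.92, SE 0.51, edgeR adjusted p = 0.00126). Irf4 had 8 to 16 counts in sham and 10 to 125 in BCAS mice (log2 fold change 1.74, edgeR adjusted p = 0.0937). Bhlhe40 had a log2 fold change of -0.08 (edgeR adjusted p = 0.701). Ccl17 and Ccl22 were below the filter and not tested. Ccl17 had 4, 12, 14 and 8 counts in sham and 4, 0, 4 and 3 in BCAS replicates 1 to 4. Ccl22 had 10, 4, 2 and 5 counts in sham and 96, 10, 43 and 12 in BCAS replicates 1 to 4. The count for this list was 3 without BCAS replicate 2.

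**Figure D5:**
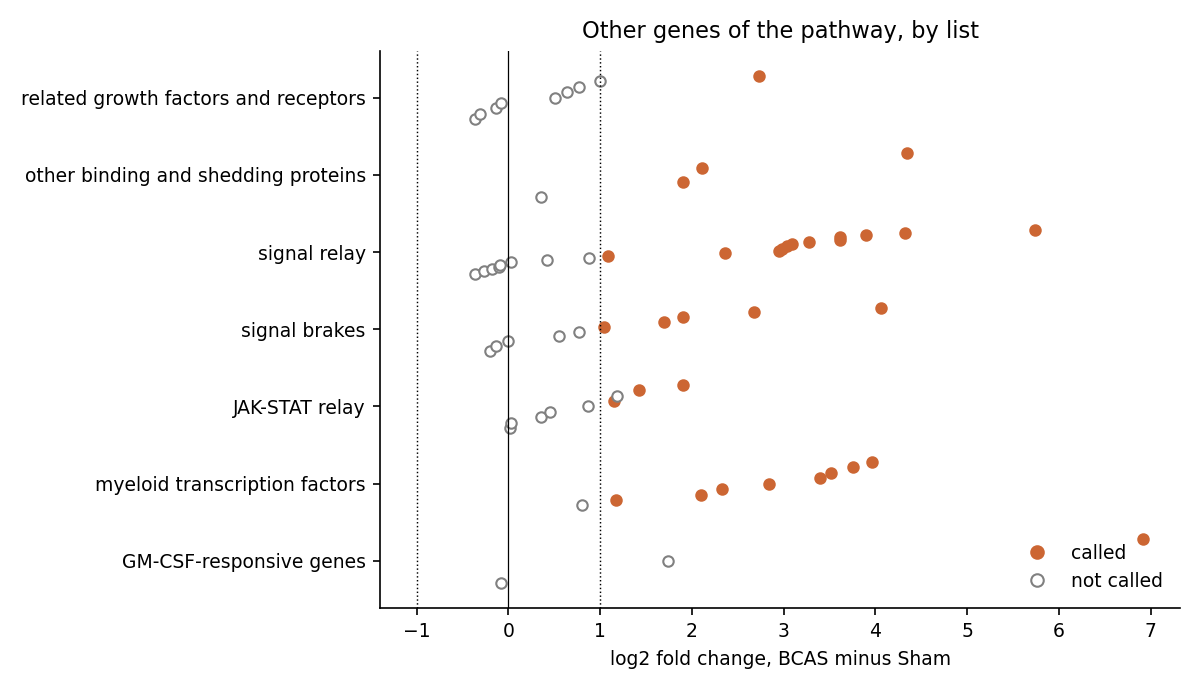
Log2 fold change of each tested gene of the 7 pathway lists, filled where called and open where not, with dotted lines at 1 in each direction. Called genes are 8 of 9 in the myeloid transcription factor list and 1 of 9 among the related growth factors and receptors, and no list holds a gene called lower.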

How the data were processed

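Right cortex RNA of 4 sham and 4 BCAS mice was sequenced as paired reads. Per the labels and methods, the authors trimmed the reads (Trim Galore), aligned them to mm10 (HISAT2), sorted them (SAMtools 1.9) and deposited raw counts per gene. The deposited headers name featureCounts 2.0.1 with GENCODE vM20 and give no strand, multi-mapping or overlap option, whereas the methods name 1.6.3 and RefSeq genes. Multi-mapping and ambiguous pairs were therefore not counted. Symbols came from a table matching 99.9% of the gene IDs. The 7 genes and all lists were chosen with earlier results of these data known.

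Counts were tested with edgeR 4.0.16 in R 4.3.3 (TMM, filterByExpr with minimum count 10 and minimum total 15, quasi-likelihood F-test without covariates), and SEs were derived from the F statistic. Ratios used counts plus 0.5 per kilobase; log2 CPM used a prior count of 2. The alternatives were other scalings and filters, DESeq2 1.42.0, limma 3.58.1, a fit with the replicate block, each library left out in turn, a test against a log2 fold change of 1, and the beta subunits summed. The procedure was tested on simulated data with fewer changed genes and a capped spread between replicates, an easier setting than these data. Per pathway list the 3 called genes with the largest change were named, and per member the 3 closest profiles; other genes were named after their values were seen. Transcript comparisons used GENCODE vM21 and blastn 2.17.0. Figures used matplotlib 3.10.9.

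Each library was 1 mouse. Same-numbered libraries deviated with correlations from -0.103 to 0.00126, so the numbers were not taken as pairs. No replicates were duplicates (chi-square per gene 4.64 or more among sham libraries).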

Additional observations from a re-analysis of the deposited data

How the results depend on the processing

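Of the 7 genes, 6 were called whichever of the 8 libraries was left out, 5 (these 6 without Csf2ra, adjusted p = 0.139 by edgeR) when tested against a log2 fold change of 1, and 7 with no threshold on the fold change. In the remaining refits and when each library was left out, the same 6 genes were called, and over all of these their highest adjusted p lay between 0.0137 (Csf3r, without sham replicate 1) and 0.0320 (Csf2rb2, limma-voom). With the replicate block, 6 were called and Il34 was -0.35 (edgeR adjusted p = 0.0418), and the block changed no call among the 7 genes. It left 11 signal relay, 4 signal brake and 2 JAK-STAT genes called, in place of 12, 5 and 3. Il34 was -0.26 with library size only (adjusted p = 0.0655), and -0.39 to -0.28 when each library was left out. Related growth factors: 2 were called with library size only and 2 with at least 10 counts in every library, and 1 to 2 when each library was left out. GM-CSF-responsive genes: 2 were called without the filter, 0 with at least 10 counts in every library, where fewer genes are tested, 2 by DESeq2, and 1 to 3 when each library was left out. JAK-STAT genes called ranged from 2 to 5, and the log2 Csf2rb to Csf2rb2 difference from -0.32 to 0.04, when each library was left out. The cause of these shifts was not tested. Exact permutation tests with 1 library left out have 35 arrangements. The Csf1 to Il34 difference ranged from 2.23 to 2.86, with an exact p under 0.05 in 4 of 8 (exact p = 0.0286 or 0.0571). The Il34 to neuronal marker difference ranged from 0.32 to 0.57, with an exact p under 0.05 in 3 of 8 (exact p = 0.0286 to 0.0857). The Csf1r to ligand and the beta to Csf2ra ratios had an exact p = 0.0286 in all 8. Within replicate numbers the smallest exact p is 0.125, so ratios were compared as values there. Levels at the floor of 3 counts limit Csf2, Csf3, Il3, Il5 and Il5ra.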
